A study of Rattus norvegicus with 8 samples.

Results

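The 49 genes described here act in cell division. They were fixed by name: 8 genes of G1 and S entry, 11 of S phase, 28 of mitosis and 2 others, and each was read through the probe sets (groups of short probes to a transcript) whose platform annotation gave that gene and no other. Of these 49 genes, 47 were measured, by 65 probe sets: 34 genes by 1 probe set, 10 by 2, 2 by 3 and Cdc20 by 5. They are 47 of 14217 genes that had such a probe set. Rrm2 and Hmgb2 were not measured, since their probe sets also carry other genes. The genes were analysed in left kidneys of male Wistar rats, 8 weeks old, 1 rat per Affymetrix rat genome array. Both diets were variants of AIN-93G, given for 24 days after all rats had eaten the control diet for 7 days. The control diet held 0.3% phosphorus (4 rats). The high phosphorus (HP) diet held 1.2% (4 rats), added as KH2PO4 in place of corn starch, so that potassium and phosphorus cannot be told apart. The arrayed rats were chosen by the authors as average ones by urine volume or kidney phosphorus. No kidney cell type was isolated, and fewer cells of a type and less RNA per cell cannot be told apart. Of 12 kidney markers 11 were measured, and all 11 lay above the array median (7.06), from 8.19 (Nphs1) to 13.5.

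A cell that enters division first passes a G1 decision point, where D-type cyclins with Cdk4 and cyclin E with Cdk2 release E2F factors from the retinoblastoma proteins. E2F factors then drive the genes of DNA replication, such as the Mcm helicase subunits, Pcna and the enzymes that make nucleotides. Genes of mitosis peak later, in G2 and M phase, and many of their promoters hold a cell cycle genes homology region (CHR), through which they are held down in resting cells, and CCAAT boxes, which bind the activator NF-Y. In the adult kidney most tubular cells rest, and division is known to resume after tubular injury.

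These promoter elements were looked up in RefSeq sequences (GRCr8), in windows from 250 bases before to 50 bases after each gene's start. Of the 49 genes 38 had a window, and Ube2c, Ccnd1, Foxm1, E2f1, Racgap1, Mcm4, Aurkb, Ccne2, Rrm2, Ccnd2 and Ccna2 had no entry. The letters searched on both strands were TTTGAA or TTCGAA for the CHR, CCAAT for the CCAAT box, and TTCCCGC or TTGGCGC for the E2F site. An E2F match and a CCAAT match on the other strand can share bases. The 200 bases before the start are printed for 3 genes of mitosis whose values are given rat by rat below (Cdk1, the mitotic kinase, Ccnb2, one of its cyclins, and Cks2, its small binding partner), for 1 replication gene (Mcm7, a helicase subunit) and for Cdk4, the only gene called by limma, the main test below. Capitals mark every match, read on either strand.
Cdk1: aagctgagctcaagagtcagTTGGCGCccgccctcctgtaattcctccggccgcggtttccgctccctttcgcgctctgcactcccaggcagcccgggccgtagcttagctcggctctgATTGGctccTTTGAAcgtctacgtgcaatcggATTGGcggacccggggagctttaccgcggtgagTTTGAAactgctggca
Ccnb2: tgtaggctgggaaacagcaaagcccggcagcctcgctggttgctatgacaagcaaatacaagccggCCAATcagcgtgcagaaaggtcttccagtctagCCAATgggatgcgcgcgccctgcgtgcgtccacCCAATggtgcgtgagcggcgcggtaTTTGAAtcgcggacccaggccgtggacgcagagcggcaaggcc
Cks2: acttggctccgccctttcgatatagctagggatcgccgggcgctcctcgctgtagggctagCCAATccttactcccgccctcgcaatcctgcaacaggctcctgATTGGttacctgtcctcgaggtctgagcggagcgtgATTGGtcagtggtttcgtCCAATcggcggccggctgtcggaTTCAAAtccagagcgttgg
Mcm7: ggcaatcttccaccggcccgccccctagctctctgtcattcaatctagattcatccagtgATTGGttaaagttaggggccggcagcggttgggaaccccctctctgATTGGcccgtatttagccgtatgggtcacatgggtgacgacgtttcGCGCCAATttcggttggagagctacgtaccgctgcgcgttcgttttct
Cdk4: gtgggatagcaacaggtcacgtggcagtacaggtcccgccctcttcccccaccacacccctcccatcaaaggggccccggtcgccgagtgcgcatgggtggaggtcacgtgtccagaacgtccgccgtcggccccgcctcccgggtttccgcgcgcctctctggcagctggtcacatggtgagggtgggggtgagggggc
The printed stretches are chr20:19265093-19265292 on the plus strand for Cdk1, chr8:79981659-79981858 on the minus strand for Ccnb2, chr17:13727520-13727719 on the minus strand for Cks2, chr12:22163179-22163378 on the minus strand for Mcm7 and chr7:64771253-64771452 on the plus strand for Cdk4. Cdk1 holds 2 CHR, 2 CCAAT and 1 E2F match in this stretch. Ccnb2 holds 1 CHR and 3 CCAAT matches, and Cks2 holds 1 CHR and 4 CCAAT matches. Mcm7 holds no CHR match, 3 CCAAT matches and 1 E2F match, and the E2F match shares bases with a CCAAT match. Cdk4 holds none of these letters.

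Matches were then counted by role. A CHR match stood in 15 of 23 promoters of mitosis genes (65.2%), in 3 of 9 of S phase genes (33.3%) and in 21.0% of the promoters of all 27457 genes. The E2F letters were found in 2 of 23 mitosis promoters (8.70%), in 6 of 9 S phase promoters (66.7%) and in 7.03% of all. CCAAT was found in 18 of 23 (78.3%), 6 of 9 (66.7%) and 39.6%, respectively. Both a CHR and a CCAAT match were present in 14 of 23 mitosis promoters (60.9%), against 8.57% of all. In the mitosis promoters 15 of 20 CHR matches lay within 100 bases of the start on either side, with a median position of -20.5. Positions in the promoters of all genes were not counted. All matches given here are matches of letters and not measured binding sites.

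**Figure D1:**
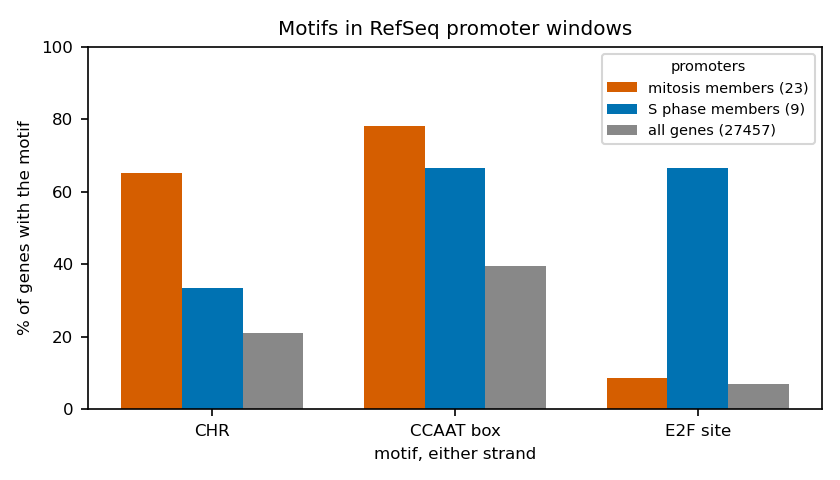
Share of promoters (vertical axis, % of genes) that hold the CHR, CCAAT or E2F letters on either strand, in 23 mitosis genes, 9 S phase genes and all 27457 genes with a RefSeq window. The CHR bar is highest in mitosis genes (65.2%) and the E2F bar in S phase genes (66.7%).

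Of the 65 probe sets 1 passed limma at an adjusted p under 0.05. This was Cdk4, the kinase that pairs with D-type cyclins, which was higher in the HP group. No probe set was lower. Over all 31042 probe sets tested 2.95% were called higher and 1.13% lower, so that the count was not above that of the array as a whole. At an unadjusted p under 0.05, 10 probe sets were higher and 3 lower, against 9.53% and 9.45% of all. The rank products test, which the authors' methods name, called 9 higher and 3 lower, against 3.4% and 2.3% of 31099 probe sets. Every HP rat lay above every control rat in 5 probe sets (7.09% of all) and below in 4 (5.81% of all).

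Single genes thus rarely passed, but the differences leaned to one side. The genes were chosen with earlier results of these data known, so the lean is described and was not tested. A standardized difference is the HP mean minus the control mean, divided by the SD within diets. It was above 0 in 49 of 65 probe sets (75.4%), against 42.3% of all, with a median of 0.80 against -0.21. Per gene, by the probe set of highest mean, 39 of 47 were above 0, with a median of 0.85 against -0.07 over 14217 genes. The signs depended on scaling, in these genes and over the whole array. After each array was centred on its median, 10 of 65 were above 0 (845 of all 31042). The median of the 65 was then -0.84, against -0.94 of all. After quantile normalization 12 of 65 were above 0 (2617 of all). The array medians differed between diets by 61.1 millionths of a log2 unit, whereas the median probe set differed by -0.224 millionths. Centring each array on the median deviation of its probe sets from their means, an alternative added after seeing the data, left 49 of 65 above 0.

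**Figure D2:**
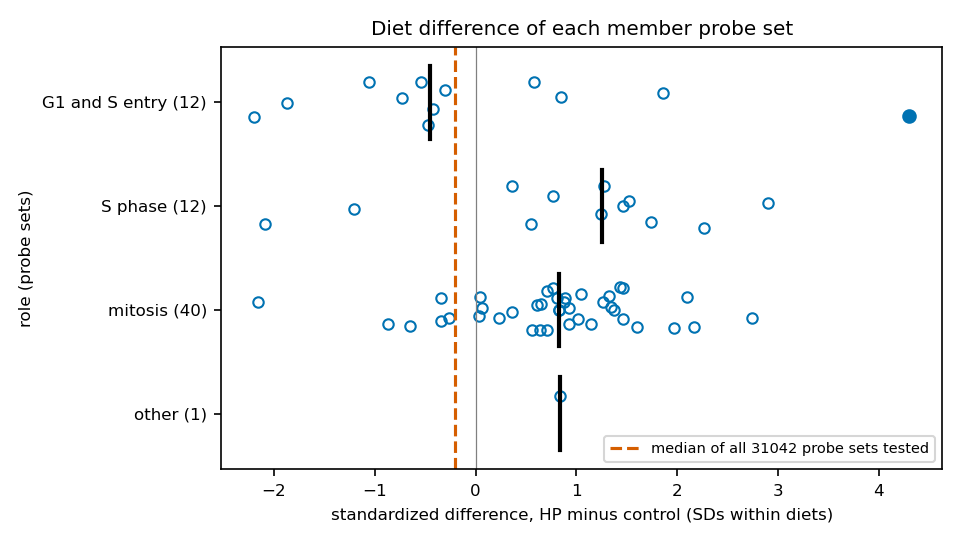
Standardized difference, HP minus control in SDs within diets (horizontal axis), of each of the 65 probe sets by role, with the median of each role as a black bar and that of all 31042 probe sets as a dashed line. The filled point is Cdk4 (4.30), which passed limma. The S phase and mitosis medians (1.26 and 0.83) lie right of the dashed line (-0.21). Both fall below 0 after median centring (-0.88 and -0.50), where that of all probe sets is -0.94. Both also do so after quantile normalization, where 2617 of all 31042 probe sets lie above 0.

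The deposited values are log values made with the distribution free weighted method (DFW), which shrinks differences strongly. A difference is therefore not a fold change. Values of single rats are given below in millionths of a log2 unit above or below the mean of the 4 control rats, for control rats 1 to 4 and then HP rats 1 to 4, as the labels number them. The differences of the 65 probe sets ranged from -988 to 311 millionths.

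Genes of G1 and S entry held both ends of the range, from -2.20 to 4.30 SDs. Of their 12 probe sets 4 were above 0, with a median of -0.45. Cdk4 lay at 0.473, 1.07, 2.12 and -3.66 in the control rats and at 9.81, 9.96, 7.04 and 8.29 in the HP rats. The 4 HP rats were close together and all above the controls. The difference was 8.78 ± 1.44 (SE, n = 4 per diet), or 4.30 SDs, with an adjusted p of 0.0247 by limma. Its exact permutation p was 0.0286, the smallest that 4 against 4 rats can give. The call was lost without HP rat 1, 2 or 4 or control rat 1 or 2 (adjusted p up to 0.0708 by limma), and the difference turned to -0.81 SDs after median centring. By rank products the FDR of Cdk4 was 0.319.

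Ccnd1, cyclin D1, which activates Cdk4, lay on the other side. Its probe set of highest mean (1371643_at) read -179, -162, 112 and 229 in the control rats and -600, -395, -208 and -234 in the HP rats. All HP rats were below all controls, though HP rat 3 was close to control rat 1. The difference was -359 ± 136 (SE, n = 4 per diet; adjusted p = 0.195 by limma). A further probe set (1371150_at) read -492, -333, 245 and 579 in the control rats and -1367, -1290, -625 and -671 in the HP rats. There too the diets did not overlap, and the difference was -988 ± 318 (adjusted p = 0.137 by limma). The last of its 3 probe sets (1383075_at) overlapped between diets, with a difference of -399 ± 265 (adjusted p = 0.461 by limma). Limma called none of the 3 lower, whereas rank products called all 3, with an FDR of up to 0.00123. Cdk2, the partner of cyclin E, differed by 1.86 SDs in one probe set and by -0.73 in the other (adjusted p 0.230 and 0.638 by limma), so that its direction was not settled. The difference of Ccne1, cyclin E1, was 0.85 SDs. The other genes of this role, namely Ccnd2, Ccnd3, Ccne2 and E2f1, lay between -0.54 and 0.58 SDs, and none passed.

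S phase genes leaned to higher values in the HP group as deposited, with 10 of 12 probe sets above 0 and a median of 1.26 SDs. None was above 0 after median centring or quantile normalization, where 845 and 2617 of all 31042 were. None passed limma, the lowest adjusted p being 0.0683. At an unadjusted p under 0.05, 3 were higher and 1 lower, against 9.53% and 9.45% of all. Rank products, which called 3.4% of all higher, called 1 higher here. This was Mcm4, a subunit of the helicase that opens DNA. Mcm4 lay at -0.681, -10.7, -0.807 and 12.1 in the control rats and at 50.4, 77.8, 23.3 and 46.9 in the HP rats. Every HP rat exceeded every control, and the difference was 49.6 ± 12.1 (SE, n = 4 per diet), or 2.90 SDs. Rank products gave it an FDR of 0.0266. Mcm7, of the same helicase, lay at -5.87, 2.97, 4.06 and -1.17 in the control rats and at 16.2, 36.2, 16.1 and 10.1 in the HP rats. Here too the diets did not overlap, with a difference of 19.6 ± 6.12, or 2.27 SDs (adjusted p = 0.127 by limma). The other 4 subunits, Mcm2, Mcm3, Mcm5 and Mcm6, differed by 0.55 to 1.52 SDs and overlapped between diets.

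Among the genes of nucleotide supply the values went both ways. Rrm1, the large subunit of ribonucleotide reductase, differed by 8.38 ± 3.42, or 1.74 SDs (adjusted p = 0.227 by limma). Tyms, which makes thymidylate, lay at -0.283, -1.67, 1.71 and 0.246 in the control rats and at -4.80, -13.5, -3.11 and -6.79 in the HP rats. All HP rats were lower for Tyms, by -7.06 ± 2.38, or -2.09 SDs (adjusted p = 0.155 by limma). Tk1, thymidine kinase, had 3 probe sets, at 1.47, 0.36 and -1.20 SDs. Pcna, the sliding clamp of the replication fork, lay at -1.02, -0.335, -1.51 and 2.87 in the control rats and at 4.84, 6.18, -2.22 and 0.609 in the HP rats. HP rats 1 and 2 were above every control for Pcna and HP rat 3 was below, and the difference was 2.35 ± 2.17 (adjusted p = 0.614 by limma).

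Mitosis genes leaned the same way as deposited. Above 0 were 34 of 40 probe sets, and 26 of 28 genes by the probe set of highest mean, with medians of 0.83 and 0.93 SDs. After median centring 10 of 40 were above 0 (845 of all 31042), and after quantile normalization 11 of 40 (2617 of all). By the probe set of highest mean, the S phase median (1.26 SDs, 9 of 10 genes above 0) was above that of mitosis genes, and this difference between roles was not tested. None passed limma, the lowest adjusted p being 0.0794. At an unadjusted p under 0.05, 5 were higher and none lower, against 9.53% and 9.45% of all. Rank products called 8 higher, against 3.4% of all: Kif11, Racgap1, Top2a, Ccnb2, Aurkb, Ccna2, Cks2 and Cdk1. Rank products do not scale by spread, and the median SD within diets was 31.7 millionths in mitosis probe sets, 4.51 in S phase probe sets and 2.22 in all.

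Kif11, the motor that separates the spindle poles, came nearest to a call. Its probe set of highest mean (1390891_at) read 60.0, 25.2, -33.0 and -52.2 in the control rats and 154, 97.6, 86.0 and 131 in the HP rats. The diets did not overlap, with a difference of 117 ± 30.2 (SE, n = 4 per diet), or 2.74 SDs (adjusted p = 0.0794 by limma). Its other probe set did not overlap either, at 22.7 ± 7.65, or 2.10 SDs. Racgap1, which acts in the splitting of the cell, differed by 43.0 ± 14.0, or 2.17 SDs, and by 0.71 SDs in its other probe set. Kif22, a motor that binds chromosome arms, differed by 37.8 ± 16.7, or 1.60 SDs. Neither of them passed (adjusted p 0.141 and 0.260 by limma).

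**Figure D3:**
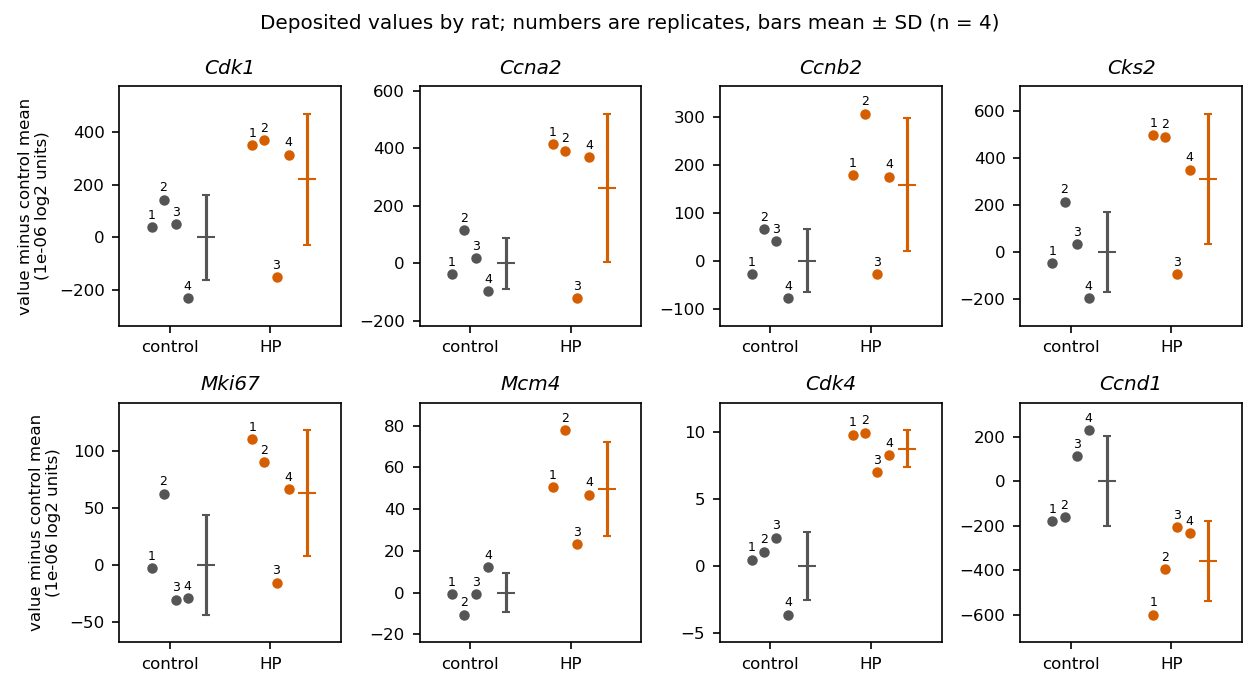
Deposited values of 8 genes in each rat, as millionths of a log2 unit from the control mean (vertical axes, own scale for each gene), with replicate numbers beside the points and mean ± SD (n = 4) as bars. HP rat 3 lies among the controls or below them for Cdk1, Ccna2, Ccnb2, Cks2 and Mki67, above all of them for Mcm4 and Cdk4, and with the other HP rats below them for Ccnd1; the sign of the diet difference of Cdk1, Mcm4, Mki67 and Cdk4 was not kept under every scaling.

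In several other mitosis genes 3 HP rats were high and 1 was low. Cdk1 lay at 39.7, 143, 49.8 and -232 in the control rats and at 351, 371, -152 and 314 in the HP rats. HP rats 1, 2 and 4 were above every control, and HP rat 3 was below 3 of the 4. The difference was 221 ± 149, or 1.05 SDs (adjusted p = 0.467 by limma). Ccnb1, cyclin B1, which activates Cdk1, lay at -21.4, 54.6, 0.633 and -33.8 in the control rats and at 50.8, 67.4, -58.5 and 63.2 in the HP rats. HP rat 3 was the lowest of all 8 rats for Ccnb1, and the difference was 30.7 ± 35.7 (adjusted p = 0.701 by limma). It was also the lowest in the other probe set of Ccnb1 (1370345_at), with a difference of 24.4 ± 27.0 (adjusted p = 0.683 by limma). Mki67, the proliferation marker, lay at -2.95, 62.4, -30.2 and -29.2 in the control rats and at 110, 89.9, -15.6 and 66.2 in the HP rats. Again HP rats 1, 2 and 4 exceeded the controls, while the difference was 62.7 ± 35.1 (adjusted p = 0.373 by limma). Bub1, a kinase of the spindle checkpoint, lay at -9.72, -7.37, 2.43 and 14.7 in the control rats and at 49.0, 61.7, 1.54 and 46.9 in the HP rats. HP rat 3 alone overlapped the controls for Bub1, with a difference of 39.8 ± 14.3 (adjusted p = 0.175 by limma). Top2a, which untangles DNA before chromosomes part, lay at 13.8, 106, -48.2 and -72.0 in the control rats and at 161, 142, 31.1 and 77.8 in the HP rats. HP rats 1 and 2 were above every control for Top2a, and the difference was 103 ± 49.7 (adjusted p = 0.301 by limma). In its other probe set (1372186_a_at) HP rats 1, 2 and 4 were above every control and HP rat 3 was below all. There the difference was 20.8 ± 16.7 (adjusted p = 0.549 by limma).

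Ccna2, Ccnb2, Cks2 and Aurkb are named because rank products called them, after their values had been seen. Ccna2, cyclin A2, lay at -37.9, 115, 17.5 and -95.0 in the control rats and at 414, 391, -120 and 368 in the HP rats. Of all 8 rats, HP rat 3 was the lowest. Ccnb2 lay at -28.2, 65.6, 41.0 and -78.4 in the control rats and at 179, 307, -28.3 and 176 in the HP rats. Cks2 lay at -49.3, 215, 32.8 and -198 in the control rats and at 498, 492, -94.7 and 351 in the HP rats. In both, HP rats 1, 2 and 4 were above every control, and HP rat 3 was among them. Aurkb, a kinase that corrects chromosome attachment, showed the same layout, with a difference of 80.0 ± 39.7 (adjusted p = 0.311 by limma). The adjusted p of Ccna2, Ccnb2 and Cks2 by limma were 0.332, 0.302 and 0.342.

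At the other end, the differences of Cdc20, an activator of the anaphase ubiquitin ligase, lay between -0.65 and 0.83 SDs over its 5 probe sets. Foxm1, a transcription factor of G2 and M genes, lay at 0.04 SDs in its probe set of highest mean and at -2.16 SDs in the other, where every HP rat was below every control. Melk, a kinase of dividing cells, differed by -0.87 SDs (adjusted p = 0.556 by limma), with the control rats spread over -87.2, 65.3, 78.3 and -56.4. Plk1, Birc5 and Cdca3, of the spindle and of mitotic entry, lay between 0.07 and 0.36 SDs. Aurka, Bub1b, Cdkn3, Cenpf, Kif20a, Kif2c, Nusap1, Prc1, Ttk and Ube2c had adjusted p between 0.351 and 0.895 by limma. Of the 13 genes with several probe sets 6 had probe sets on both sides of 0. Stmn1, which binds tubulin and destabilises microtubules, differed by 4.58 ± 3.89, or 0.83 SDs (adjusted p = 0.577 by limma).

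**Figure D4:**
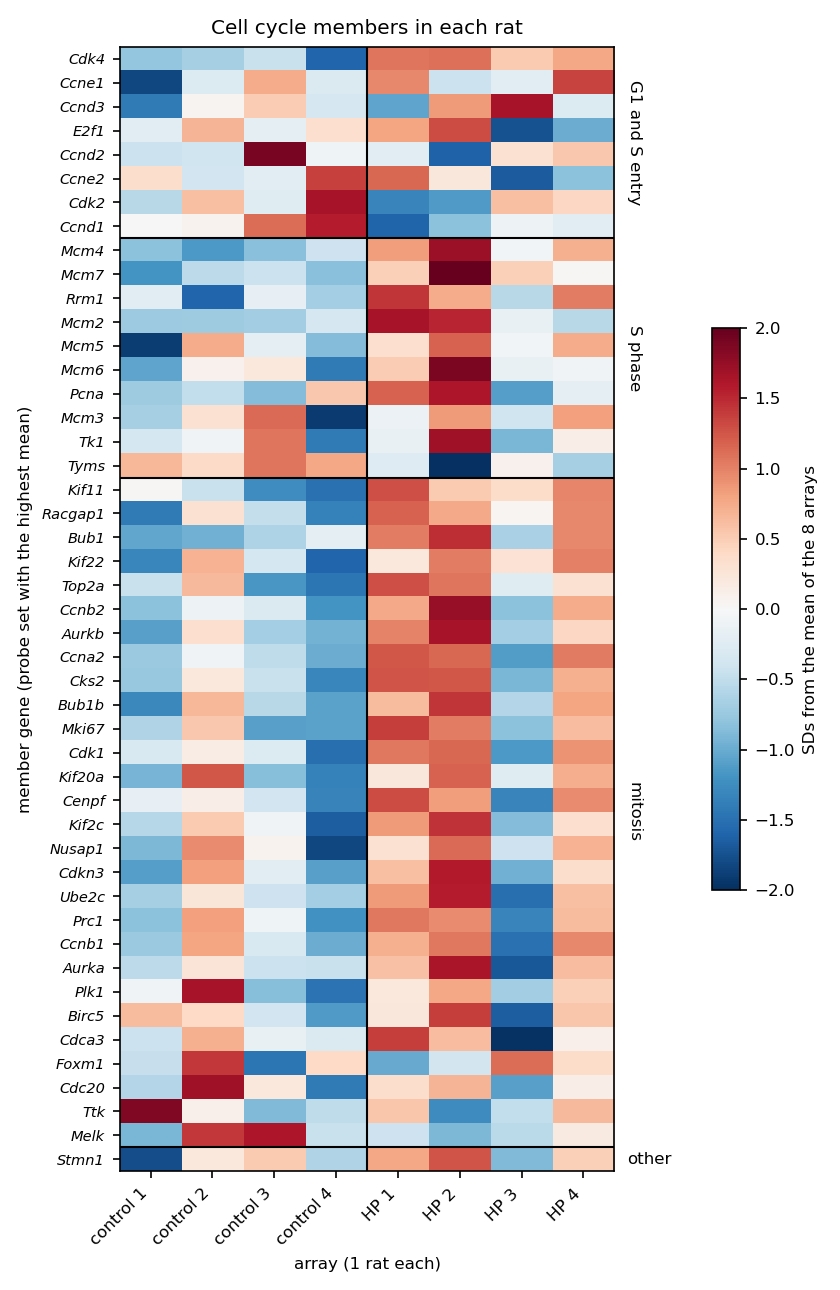
Each row is one of 47 genes (probe set of highest mean), each column a rat, and the colour gives SDs from the mean of the 8 rats (red above, blue below). The mitosis rows are mostly red in HP rats 1, 2 and 4 and mostly blue in HP rat 3. Among the controls they are mostly palest or red in rat 2 and darkest blue in rat 4. Values are as deposited. After median centring 10 of the 65 probe sets have a diet difference above 0 (845 of all 31042). After quantile normalization 12 of 65 do (2617 of all), and 17 of 65 have no spread within diets.

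The order of the rats was shared across the mitosis genes. HP rat 3 was the lowest HP rat in 33 of 40 probe sets (82.5%), against 24.5% of all tested. By the probe set of highest mean, that held for 24 of 28 genes. HP rat 2 was the highest in 23 of 40 (57.5%), against 29.9% of all. Among the controls, rat 2 was the highest in 31 of 40 (77.5% against 26.0%) and rat 4 the lowest in 26 of 40 (65.0% against 29.2%). In 28 of 40 probe sets HP rat 3 was lowest and control rat 2 highest at once. HP rat 3 was below the control mean in 30 of 40 probe sets (75.0% against 53.9% of all). It was below every control in 12 of 40 (30.0%), a share close to the 26.0% of all. Above every control lay HP rat 1 in 20, HP rat 2 in 30, HP rat 4 in 22 and HP rat 3 in 2 of 40, against 21.0%, 25.2%, 21.0% and 21.5% of all. HP rats 1, 2 and 4 all lay above every control in 16 of 40 probe sets (40.0% against 8.96% of all), and in 14 of them HP rat 3 was the exception. All 4 HP rats did so in 2 of 40 (5.00% against 7.09% of all). These shares describe probe sets that share the same 8 rats, and they are not replicates of the diet.

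The same order was looked for in other genes. In a further list of mitosis genes, of which 43 of 52 were measured by 57 probe sets, HP rat 3 was lowest in 37 (64.9%) and control rat 2 highest in 27 (47.4%). S phase members had HP rat 3 lowest in 7 of 12 probe sets (58.3%) and HP rat 2 highest in 8 (66.7%), but control rat 3, not 2, was most often the highest control (7 of 12). In 53 probe sets of further S phase genes HP rat 3 was lowest in 17 (32.1%) and HP rat 2 highest in 16 (30.2%), near the shares of all probe sets. In the G1 and S entry genes HP rat 3 was lowest in 3 of 12. After centring on the median deviation the counts for mitosis members stayed at 33 of 40 for HP rat 3 and 31 of 40 for control rat 2. After median centring HP rat 2, with the highest array median, was lowest in 24 of 40 (98.0% of all probe sets), and HP rat 3 in 16 (1.06% of all).

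**Figure D5:**
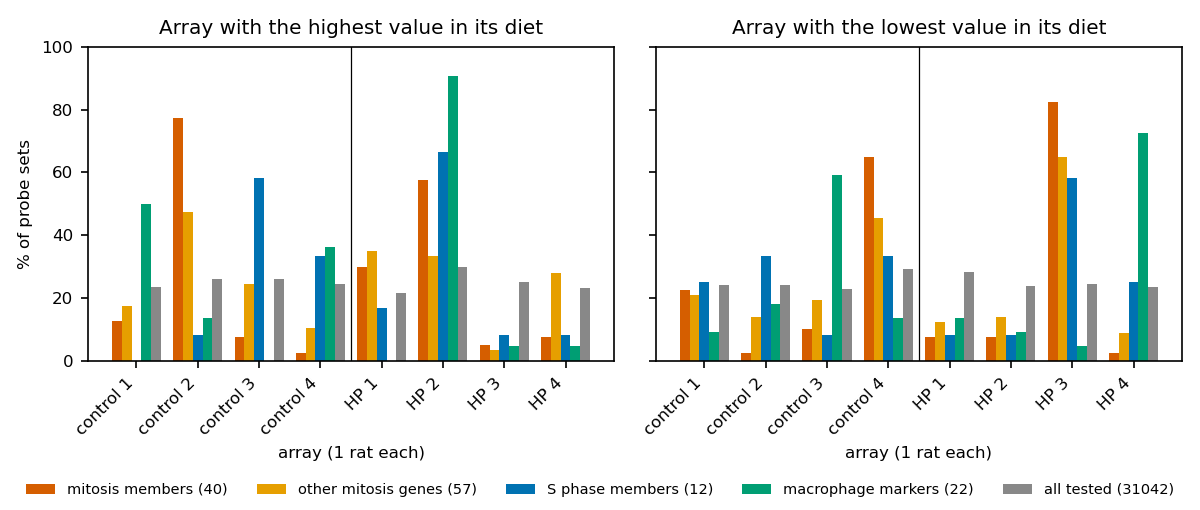
Share of probe sets (vertical axes, %) for which each rat was the highest (left) or the lowest (right) of its diet, for mitosis members (40 probe sets), other mitosis genes (57), S phase members (12), macrophage markers (22) and all 31042 tested, as deposited. HP rat 3 is lowest for 82.5% of mitosis members, 64.9% of other mitosis genes, 58.3% of S phase members, 4.55% of macrophage marker probe sets and 24.5% of all tested; tubular injury markers, not drawn, had it lowest in 54.5%, and after median centring HP rat 2 is lowest for most of all probe sets instead.

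Leaving out HP rat 3 raised these counts. Limma then called 4 member probe sets higher, against 2.16% of all: Cdk4, Mcm4, Bub1 and Ccna2. Bub1 reached 52.5 ± 7.62, or 5.26 SDs (adjusted p = 0.0287 by limma), and Ccna2 391 ± 54.1, or 5.52 SDs (adjusted p = 0.0251 by limma). Mcm4 reached 4.52 SDs (adjusted p = 0.0390 by limma) and Cdk4 4.57 SDs (adjusted p = 0.0398 by limma). Ccnb2, Cks2, Cdk1 and Mki67 lay at 3.18, 3.12, 2.73 and 2.44 SDs, with an adjusted p of 0.0882 to 0.157 by limma. Every remaining HP rat was above every control in 20 of 65 probe sets, 16 of them of mitosis genes, against 8.96% of all. With any other single rat left out, limma called 0 or 1 member higher, and without control rat 2 the HP rats were above all controls in 11 of 65 (16.9% against 8.68% of all). HP rat 3 was left out because of its place in these same values, so the counts without it describe the remaining rats and are no test of the diet.

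Markers of other cell types were read in the same rats. By the probe set of highest mean, limma called 13 of 18 macrophage marker genes higher, against 651 of all 14217 genes. The difference was above 0 in 17 of the 18. Their mean level was 7.9921 to 7.9924 in the control rats and 7.9934 to 7.9944 in the HP rats. Ptprc and Aif1, of leukocytes and macrophages, passed with an adjusted p of 0.00835 and 0.00860 by limma. Of 10 fibroblast marker genes all were above 0 (8.5973 to 8.5975 against 8.5983 to 8.5985). Limma called 7 of them, Col3a1 and Dcn of the matrix included. Of 9 tubular injury marker genes all were above 0 (8.1778 to 8.1827 against 8.2194 to 8.2409). Limma called 5 of them, with Havcr1 and Vim included. Havcr1 weighs most in that mean level, with a difference of 422974 millionths, against 20290 for Clu and 6336 for Vim. Of 11 lymphocyte marker genes 8 were above 0 (6.67360 to 6.67363 against 6.67365 to 6.67369), and limma called 2 higher, Lck and Cd3g. Of 11 kidney marker genes 4 were above 0, and limma called none. In HP rat 3 the mean levels of macrophage (7.9936), fibroblast (8.5983) and tubular injury markers (8.2194) lay above those of every control. Within the HP rats, HP rat 3 had the lowest mean level of fibroblast, tubular injury and lymphocyte markers. The median over genes of SDs from the 8-rat mean weighs genes alike. By it HP rat 3 was lowest for fibroblast (0.65) and tubular injury markers (0.52), but HP rat 1 for lymphocyte markers (0.11). By probe set HP rat 3 was lowest in 6 of 11 for tubular injury markers (54.5%), 6 of 14 for lymphocyte markers (42.9%) and 5 of 14 for fibroblast markers (35.7%). It was lowest in 1 of 22 for macrophage markers (4.55%) and none of 16 for kidney markers, against 24.5% of all tested. HP rat 2 was highest in 10 of 11 tubular injury (90.9%), 10 of 14 lymphocyte (71.4%) and 20 of 22 macrophage probe sets (90.9%). The part of these cell types in the values of the division genes was not tested. The arrays hold no true zero, so absence of a cell type could not be read from them.

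Limma called no probe set of the wider cell cycle lists, against 2.95% higher and 1.13% lower of all tested. At an unadjusted p under 0.05, 9.53% of all were higher and 9.45% lower. Rank products called 3.4% of all higher and 2.3% lower. Of 42 further S phase genes 37 were measured by 53 probe sets, and limma called none, with 4 higher and 3 lower at an unadjusted p under 0.05 and none by rank products. With 1 probe set per gene limma called 1 of the 37 higher, against 5.61% of all 14217. This was Gins3 of the replication fork, named after its value was seen. Their median was 0.08 SDs as deposited, and 30 of 53 were above 0. Of the 57 probe sets of further mitosis genes limma called none, with 7 higher and 2 lower at an unadjusted p under 0.05, and 3 higher and 1 lower by rank products. Their median was 0.67 SDs, with 42 of 57 above 0 as deposited and 2 of 57 after median centring (13141 and 845 of all 31042). All 12 CDK inhibitors and pocket proteins, the brakes on G1 exit, were measured by 16 probe sets. None passed limma, with 2 higher and 1 lower at an unadjusted p under 0.05, and 2 higher and 1 lower by rank products. The smallest rise that limma called on the array was 3.23 SDs, so that a miss of the threshold does not show that a gene did not differ.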

How the data were processed

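RNA of 8 left kidneys, 4 per diet, was hybridised by the authors to Affymetrix rat genome arrays. The deposited log2 values (base 2 was assumed, as none is stated) were summarised by the authors from all 8 arrays with DFW in R. DFW shrinks differences, and no detection calls were used. Of 31099 probe sets, 57 Affymetrix controls were left out. The remaining 31042 were fitted with limma 3.58.1 in R 4.3.3 (lmFit and eBayes, prior degrees of freedom 0.772), HP minus control, with Benjamini-Hochberg adjustment over all and a threshold of 0.05. Single values were also tested by exact two-sided permutation, over the 70 ways to place 8 rats in 2 diets. Rank products used 16 pairs of arrays, which the authors' methods do not state. The 1000 permutations and the FDR under 0.05 were as in those methods. The main test was limma since rank products do not scale by spread. Python 3.11.15, numpy 2.4.6, pandas 2.3.3 and matplotlib 3.10.9 were used for counts and plots. The tests were also run on simulated arrays with independent noise and known shifts, placed for rank products only among probe sets of large spread. Those runs do not show how the tests behave where genes share an order of rats. Genes were taken from the platform annotation, by which 20826 probe sets have 1 gene, 436 several and 9780 none. Genes named in full are those that passed limma, the 4 of smallest p in each role, and always Mki67, Top2a, Pcna, Cdk1, Ccnb1 and Ccnd1. In the marker lists they are up to 4 that passed. The genes and lists were chosen with earlier results of these data known. The labels call the arrays biological replicates and give no batch. Alternatives were other moderation, array weights, a replicate block, quantile normalization, 2 ways of centring, a filter on low probe sets (lowest 25%), 1 probe set per gene and each array left out. The number of arrays limits the precision.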

Additional observations from a re-analysis of the deposited data

Results flagged for a closer look

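In 3 of 50 diet groups looked at (the named probe sets in each diet), 1 rat stood apart from the other 3 by a gap, as a share of the range, above Dixon's critical value at the 95% level. Chance gives about 1 in 20 groups. The low one was HP rat 3 for Cdk1 (1367776_at), with a gap of 0.892 of the range of the HP rats, and for Ccnb1 (1370346_at), with 0.868. The high one was HP rat 4 for Kif11 (1385619_at), with 0.85. Both of the low values belong to the order of rats that the mitosis genes share.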

How the results depend on the processing

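Cdk4 stayed called, and no other member was, when moderation was left out or made robust with a trend, when arrays were weighted, without the lowest 25% of probe sets, with 1 probe set per gene and after centring on the median deviation (added after seeing the data). The count of members called higher was 0 after median centring, 0 with the replicate block (Cdk4, adjusted p = 0.0858 by limma) and 9 by rank products, and between 0 and 4 with 1 array left out (4 without HP rat 3). The count called lower was 13 after quantile normalization, 1 with the block (Ccnd1, 1371150_at, adjusted p = 0.0432 by limma) and 3 by rank products. What rats of the same replicate number share is not stated. Same-number deviations of the diets correlated at 0.121, 0.0887, 0.0626 and 0.00148, and those of unlike number at -0.165 to 0.0842. With the block 254 and 115 of all probe sets were called higher and lower, against 915 and 350 without it. The median of S phase genes was -0.88 SDs after median centring, -1.11 after quantile normalization and 0.98 to 1.55 with 1 array left out. That of mitosis genes was -0.33, -0.77 and 0.62 to 1.92, respectively. Over all 31042 probe sets the median was -0.94 after median centring. Of 25 named probe sets, 16 turned sign after median centring: Bub1 -0.32, Ccnb1 (1370345_at) -0.49, Ccnb1 (1370346_at) -0.37, Ccne1 -0.92, Cdk2 (1378874_at) -0.92, Cdk4 -0.81, Kif11 (1385619_at) -0.60, Kif22 -0.38, Mcm4 -0.19, Mcm7 -0.70, Pcna -0.90, Racgap1 (1373658_at) -0.26, Racgap1 (1384259_at) -0.91, Rrm1 -0.80, Stmn1 -0.89 and Top2a (1372186_a_at) -0.51 SDs. The probe sets of Kif11 (1390891_at) and Top2a (1388650_at) given rat by rat above kept their sign there. After quantile normalization 10 turned sign and Mcm7 came to 0, each by 1 probe set: Bub1 -1.29, Ccnb1 (1370345_at) -1.66, Ccne1 -4.57, Cdk1 -1.01, Kif22 -1.22, Mcm4 -0.46, Mcm7 0, Mki67 -2.12, Racgap1 -1.22, Rrm1 -3.53 and Top2a -1.58 SDs. By construction, quantile normalization gives a probe set of the same rank on all arrays 1 value, which held for 13 of 65 member probe sets, and 17 had no spread within diets, so that Cdk4 and some others had no standardized difference. It called 7712 of all probe sets lower, and of the members it called 1 higher, which was Kif11 (1390891_at, 2.94 SDs, adjusted p = 0.0212 by limma) and not Cdk4. By median centring 78 and 19 of all were called, without moderation 522 and 171, and with 1 array left out 339 to 672 higher. DFW fixes the scale, so that the size of a change in RNA could not be read from any of these settings.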

Other observations

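The probe sets that Rrm2 and Hmgb2 share with related genes were counted with no list. Those annotated to Rrm2 and Rrm2l1 differed by 0.74 (1389408_at) and 1.18 SDs (1393848_at), with adjusted p of 0.625 and 0.410 by limma. The probe set annotated to Hmgb2 and 3 Hmgb2-like genes (1367676_at) was higher in the HP group by 3.49 SDs (adjusted p = 0.0404 by limma), and which of its 4 genes carried the difference cannot be told apart.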
